A study of Mus musculus with 18 samples.

Results

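The mRNAs of 10 genes that encode the inflammasome and the machinery of pyroptosis were followed in RAW264.7 cells, a macrophage-like line from a mouse tumour. The genes were *Nlrp3*, *Nlrp1b*, *Naip5*, *Casp1*, *Casp4*, *Casp8*, *Gsdmd*, *Il18*, *Nek7* and *Txnip*. They are the members of a list of inflammasome genes, chosen with earlier results of these data known, and all 10 of the 10 listed had a row among the 11243 protein-coding genes of the table. Control cells received vehicle (DMSO). The second group received 500 ng/mL LPS from Salmonella for 6 h, and the third received the same LPS in combination with torin1 (100 nM, first added 15 min earlier), which blocks the active site of mTOR. Each treatment was made in 3 experiments, and from each of the 9 lysates both the total and the polysome-associated mRNA were sequenced, which made 18 libraries. Torin1 without LPS was not analysed here, so that the effect of torin1 was seen in LPS-treated cells alone. LPS reaches these cells through TLR4, and no agent that triggers inflammasome assembly was named in the treatments.

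Inflammasomes are protein platforms that form in the cytosol when a sensor meets a microbial product or a sign of damage. Sensors such as NLRP3, NLRP1B and the NAIP proteins recruit caspase-1, which cuts pro-interleukin-1β and pro-interleukin-18 and frees the pore-forming end of gasdermin D, whereas caspase-11, the product of mouse *Casp4*, binds LPS inside the cell and cuts gasdermin D directly. In macrophages the pathway is known to need a priming step, in which Toll-like receptor signals raise the mRNA of some components before a second signal causes assembly. RAW264.7 cells are known to lack the adaptor ASC, and its gene, *Pycard*, had no row in the table and was not analysed here.

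RefSeq start-site windows (GRCm38.p6; 250 bases before and 50 after the start) were at hand for 9 of the 10 genes, 12 windows in all. *Gsdmd* had none. The windows of *Casp4* and *Nlrp3* are shown because these mRNAs moved most with LPS, that of *Casp1* because it lies next to *Casp4*, and those of *Il18* and *Nek7* because these mRNAs moved most with torin1. They run 5′ to 3′ on the strand of the gene, and capitals mark matches to the κB motif, which NF-κB dimers recognise, or to the E-box CACGTG, which the MiT and Myc families recognise.
Casp4 (chr9:5308599-5308898, plus strand): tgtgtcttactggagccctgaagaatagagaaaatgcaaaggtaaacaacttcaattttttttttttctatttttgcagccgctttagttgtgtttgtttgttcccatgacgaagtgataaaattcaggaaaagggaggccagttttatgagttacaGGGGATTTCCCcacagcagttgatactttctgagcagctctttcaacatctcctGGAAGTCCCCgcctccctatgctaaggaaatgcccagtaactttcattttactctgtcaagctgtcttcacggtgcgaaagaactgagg
Nlrp3 (chr11:59541319-59541618, plus strand): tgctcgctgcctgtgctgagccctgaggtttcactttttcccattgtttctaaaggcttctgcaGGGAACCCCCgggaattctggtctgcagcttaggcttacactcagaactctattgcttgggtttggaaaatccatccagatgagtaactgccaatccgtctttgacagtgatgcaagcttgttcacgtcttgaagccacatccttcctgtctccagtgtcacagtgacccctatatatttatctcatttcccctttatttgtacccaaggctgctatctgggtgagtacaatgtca
Casp1 (chr9:5298267-5298566, plus strand): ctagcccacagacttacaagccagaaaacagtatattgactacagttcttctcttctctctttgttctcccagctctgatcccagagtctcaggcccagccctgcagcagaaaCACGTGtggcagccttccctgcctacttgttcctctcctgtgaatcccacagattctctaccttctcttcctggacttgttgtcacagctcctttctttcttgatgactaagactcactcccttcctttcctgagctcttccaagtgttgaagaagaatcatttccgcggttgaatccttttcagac
Il18 (chr9:50554450-50554749, plus strand): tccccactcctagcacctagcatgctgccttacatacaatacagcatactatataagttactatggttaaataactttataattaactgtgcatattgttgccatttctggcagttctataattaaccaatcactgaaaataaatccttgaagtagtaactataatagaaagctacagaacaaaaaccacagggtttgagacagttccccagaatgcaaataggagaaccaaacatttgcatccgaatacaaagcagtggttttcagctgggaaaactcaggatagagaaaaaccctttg
Nek7 (chr1:138619708-138620007, minus strand): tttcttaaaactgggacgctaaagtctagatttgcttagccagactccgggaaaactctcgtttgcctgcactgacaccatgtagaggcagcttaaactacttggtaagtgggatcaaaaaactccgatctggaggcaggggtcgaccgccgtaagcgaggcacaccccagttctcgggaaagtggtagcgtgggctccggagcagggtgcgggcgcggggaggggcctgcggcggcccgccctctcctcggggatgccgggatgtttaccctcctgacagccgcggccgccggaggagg
A set of 4 motifs was searched on both strands. The κB motif was found in 4 of the 12 windows, of 3 genes, and in 8.46% of all 32851 windows. In *Nlrp3* it lay at -186 from the start site of the window shown, while the second *Nlrp3* window (chr11:59542436-59542735) held none. In *Naip5* it lay at -218, and in the *Casp4* window shown at -93, -92 and -39, where the first pair overlaps, with the same sites in a second *Casp4* window that starts 11 bases further on. The E-box was found in 1 of the 12 windows, that of *Casp1* at -137, and in 7.15% of all windows. The core of the interferon-stimulated response element (ISRE) and the AP-1 motif, TGANTCA, were found in none of the 12 windows and in 3.44% and 7.81% of all windows. None of the motifs was in the *Il18*, *Nek7*, *Txnip*, *Casp8* or *Nlrp1b* windows. The *Casp8* window lay 7128 bases from the start of the annotated gene, which was itself not searched. An *Nlrp1b* window (chr11:71201407-71201706) lay 29277 bases from its gene start. The start site of the *Naip5* window, which held a κB match, lay 1013 bases upstream of the annotated gene start. A match describes these letters and was not tested as a binding site.

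Each library held between 27800983 and 47725557 counted reads. Levels are given as CPM, counts scaled to a common library size, with TMM scaling, which sets the bulk of genes level between libraries. The TMM factors ranged from 1.13 to 1.19 in control libraries and from 0.876 to 0.974 in the libraries with LPS, with or without torin1, so the choice of scaling touches every comparison with the control. With library totals in place of TMM, the median log2 change of all genes with LPS was -0.38 in both RNA types, against -0.02 in total and -0.03 in polysome-associated mRNA with TMM. All 9 macrophage markers examined had a row, none of 10 markers of T cells, B cells, NK cells, epithelium, fibroblasts or endothelium had one, and *Tnf*, *Cxcl10* and *Irf7* were higher with LPS in both RNA types. *Nos2*, also listed as a check of the LPS response, had no row. In bulk libraries, more cells that express a gene and more mRNA per cell cannot be told apart.

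**Figure D1:**
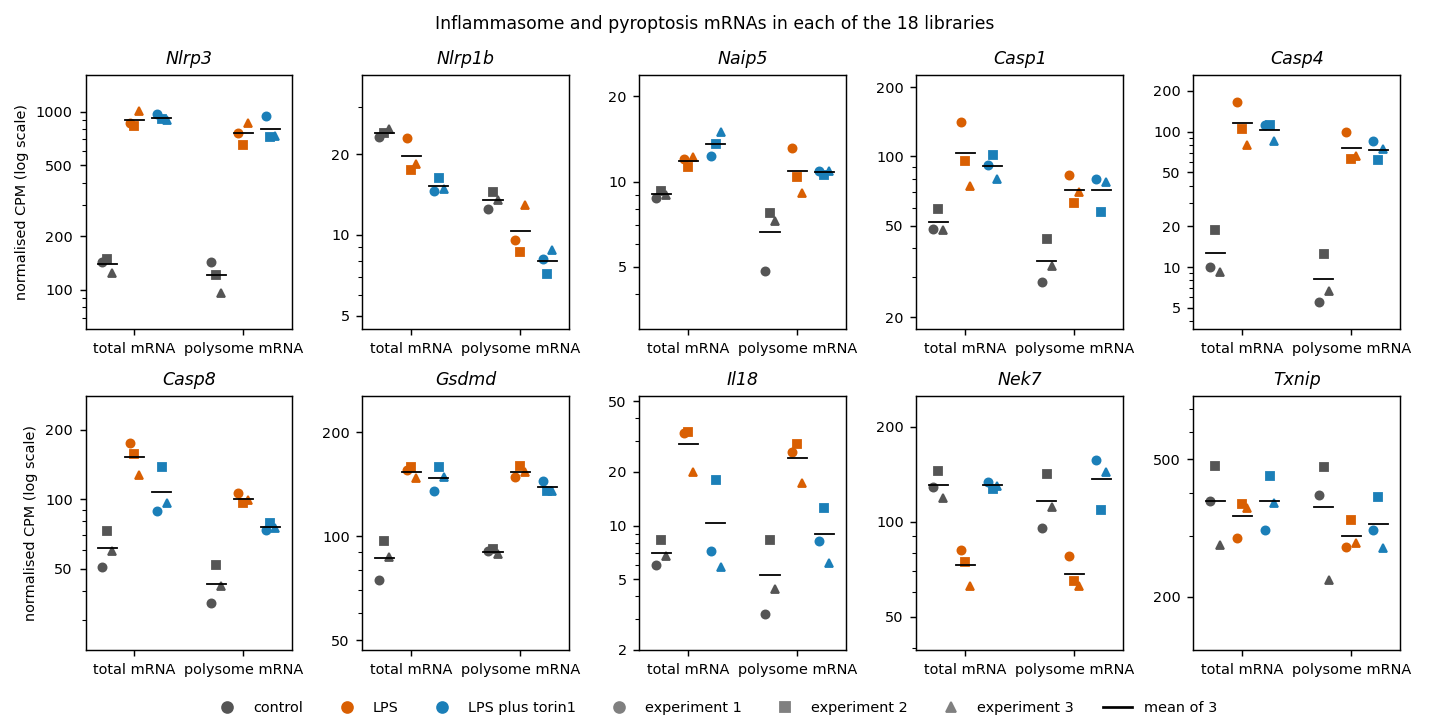
Normalised CPM (log scale) of the 10 mRNAs in each library, with total mRNA on the left and polysome-associated mRNA on the right of each panel, colours for the treatments, symbols for the 3 experiments and a line at the mean. *Nlrp3* and *Casp4* stand far above the control with LPS, with or without torin1, *Il18* is high with LPS alone, and *Nek7* is low with LPS alone.

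LPS raised the mRNA of most of these genes and lowered that of *Nek7* and *Nlrp1b*. *Casp4*, *Nlrp3* and *Il18* rose by between 4 and 10 times, *Casp8*, *Casp1* and *Gsdmd* by between 1.7 and 2.5 times, and *Naip5* by less in total mRNA, whereas *Txnip* was not called. In total mRNA, 7 of the 10 were higher and 2 lower at the threshold of the study, an FDR of 0.25. In all genes tested 66.5% were called, 32.2% as higher and 34.3% as lower. The median log2 change of the 10 was 0.92, beside -0.02 in all genes. In polysome-associated mRNA the count was again 7 higher and 2 lower, with 55.1% of all genes called, 26.4% as higher and 28.7% as lower, and a median of 0.90 beside -0.03. The ranges of the 3 control and the 3 LPS libraries did not overlap for 9 of the 10 genes in total mRNA, as for 53.9% of all genes, and for 8 of the 10 in polysome-associated mRNA, as for 46.2%. With library totals, 6 were higher and 3 lower in total mRNA and 7 and 3 in polysome-associated mRNA, whereas 1722 of all genes were then higher and 6966 lower in total mRNA, and 1539 higher and 6101 lower in polysome-associated mRNA. With experiment as a block the members' counts were again 9 and 9, beside 73.1% of all genes called in total and 62.8% in polysome-associated mRNA.

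Among the sensors, NLRP3 responds to potassium loss, crystals and many other insults and forms the best known inflammasome. *Nlrp3* (chr11:59541568-59566956) stood at 144, 149 and 125.1 CPM of total mRNA in the control libraries of experiments 1 to 3 and at 868, 830 and 1009 CPM with LPS. It rose 6.47-fold in total mRNA (log2 fold change 2.69 ± 0.12 SE, edgeR FDR = 2.76e-07) and 6.24-fold in polysome-associated mRNA (2.64 ± 0.20, edgeR FDR = 1.02e-05). No LPS library came near the control range, and in both RNA types the change was greatest in experiment 3, at 3.01 and 3.16 on the log2 scale, against values from 2.39 to 2.59 in the other experiments.

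NLRP1B, which anthrax lethal toxin activates in some mouse strains, went the other way. *Nlrp1b* (chr11:71153102-71230733, minus strand) stood at 23.2, 23.9 and 24.7 CPM of total mRNA in control cells and at 23.04, 17.5 and 18.4 with LPS. The call was a decrease in both RNA types, of 0.29 ± 0.13 SE in total mRNA (log2 fold change -0.29, edgeR FDR = 0.0849) and of -0.38 ± 0.19 in polysome-associated mRNA (edgeR FDR = 0.151). Experiment 1 gave -0.01 in total mRNA, and the polysome-associated ranges overlapped. The total mRNA call was lost without experiment 2 (edgeR FDR = 0.313) or 3 (0.400), and the polysome call without experiment 1 (0.428) or 2 (0.433). The gene differs between mouse strains and the reads were aligned to the reference genome, so its absolute level is uncertain.

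NAIP5 recognises bacterial flagellin and hands the signal to NLRC4. *Naip5* (chr13:100211739-100246323, minus strand) was among the scarcest of the 10 mRNAs, at 8.76, 9.25 and 9.0 CPM of total mRNA in control cells and 12, 11.2 and 12.2 with LPS. It rose by 0.39 ± 0.12 on the log2 scale in total mRNA (edgeR FDR = 0.0233), although with library totals the value was 0.03 (edgeR FDR = 0.870). In polysome-associated mRNA the change was 0.71 ± 0.22 (edgeR FDR = 0.0279), of which experiment 1 gave the most, 1.44, against 0.42 and 0.33, and without experiment 1 the call was lost (0.38, edgeR FDR = 0.327). The genome holds other *Naip* genes of closely similar sequence, so reads may have been split between them.

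The caspase genes rose together, and *Casp4* by far the most. *Casp4* (chr9:5308828-5336783), whose protein senses LPS in the cytosol, stood at 10.1, 18.8 and 9.21 CPM of total mRNA in the control libraries and at 165, 104 and 79.7 with LPS. The rise was 9.12-fold in total mRNA (log2 fold change 3.19 ± 0.33, edgeR FDR = 3.35e-05) and 9.20-fold in polysome-associated mRNA (3.20 ± 0.31, edgeR FDR = 4.09e-05). The 3 experiments spread widely, at 4.03, 2.47 and 3.11 on the log2 scale in total mRNA, yet control and LPS libraries stood far apart.

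*Casp1* (chr9:5298517-5307265) ends 1562 bases before *Casp4* starts on the same strand, and its protein matures the interleukin-1 cytokines. Its total mRNA stood at 48.3, 59.0 and 47.9 CPM in control cells and at 142, 95.9 and 74.5 with LPS. The rise was 2.01-fold (1.01 ± 0.21, edgeR FDR = 0.00268), and 2.04-fold in polysome-associated mRNA (1.03 ± 0.20, edgeR FDR = 0.00255). As with *Casp4*, the control of experiment 2 was the highest and the LPS library of experiment 1 was the highest.

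Caspase-8 starts apoptosis from death receptors, holds necroptosis in check and can also cut gasdermin D. *Casp8* (chr1:58795374-58847503) stood at 51.0, 72.8 and 59.6 CPM of total mRNA in control cells and at 175, 156 and 127 with LPS. It rose 2.50-fold in total mRNA (1.32 ± 0.20, edgeR FDR = 0.000365) and 2.33-fold in polysome-associated mRNA (1.22 ± 0.16, edgeR FDR = 0.000223). In both RNA types the ranges of control and LPS stood apart. For each of *Casp4*, *Casp1*, *Casp8* and *Il18* the log2 rise was greatest in experiment 1 in both RNA types, which draw on the same lysates.

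Gasdermin D forms the pore through which the cytokines leave and the cell bursts. *Gsdmd* (chr15:75862327-75867408) stood at 74.9, 97.2 and 87.0 CPM of total mRNA in control cells and at 155, 158 and 148 with LPS, and polysome-associated mRNA ranged from 88.7 to 91.6 CPM without and from 149 to 159.6 with LPS. The rise was 1.78-fold (0.83 ± 0.12, edgeR FDR = 0.000224) in total mRNA and 1.70-fold (0.77 ± 0.12, edgeR FDR = 0.000774) in polysome-associated mRNA.

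Interleukin-18 is a substrate of caspase-1 that drives interferon-γ release from lymphocytes. *Il18* (chr9:50554827-50581840) had 5.99, 8.28 and 6.71 CPM of total mRNA in control cells and 32.9, 33.5 and 20.0 with LPS. In polysome-associated mRNA the values were 3.18, 8.29 and 4.38 CPM without LPS and 25.8, 28.9 and 17.4 with it. The rise was 4.11-fold (2.04 ± 0.38, edgeR FDR = 0.00158) in total mRNA and 4.56-fold (2.19 ± 0.38, edgeR FDR = 0.00158) in polysome-associated mRNA. These counts, from 140 to 1146 per library over both RNA types in control and LPS cells, were among the lowest of the 10 mRNAs.

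The last 2 genes encode regulators of NLRP3. NEK7, a kinase of the mitotic NEK family, binds NLRP3 and is needed for its assembly. *Nek7* (chr1:138482875-138620141, minus strand) stood at 129.1, 145 and 118.8 CPM of total mRNA in control cells and fell to 81.3, 74.6 and 62.7 with LPS. Every LPS library lay below every control library in both RNA types. The decrease was 1.80-fold in total mRNA (log2 fold change -0.85 ± 0.12, edgeR FDR = 0.000242) and 1.70-fold in polysome-associated mRNA (-0.77 ± 0.19, edgeR FDR = 0.00973).

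TXNIP binds thioredoxin, limits glucose uptake and has been described as a partner of NLRP3. *Txnip* (chr3:96557957-96561883) stood at 378, 478 and 282 CPM of total mRNA in control cells and at 297, 371 and 361 with LPS, so that the ranges overlapped. The log2 change was -0.15 with a 95% interval from -0.58 to 0.28 (edgeR FDR = 0.570), and -0.28 with an interval from -0.84 to 0.28 in polysome-associated mRNA (edgeR FDR = 0.435). Experiments 1 and 2 lay below 0 and experiment 3 above it in both RNA types, and without experiment 3 the polysome value was called (-0.50, edgeR FDR = 0.221). With library totals it was called lower in both (-0.51, edgeR FDR = 0.0409, and -0.64, edgeR FDR = 0.0656). The antisense gene *Gm15441* overlaps 19.4% of its exon bases, and the way strands were counted is not spelled out in the sources used here, so reads of the pair may not be told apart. For *Nek7* the overlap with an antisense gene was 1.6%.

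**Figure D2:**
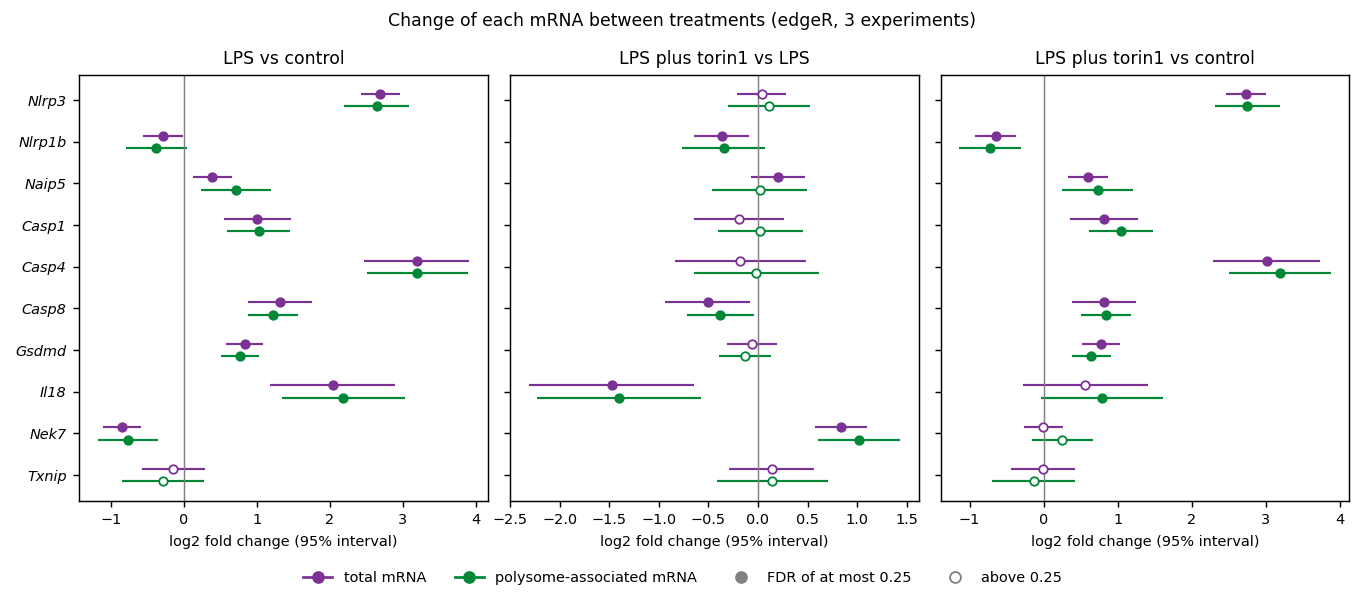
Log2 fold changes with 95% intervals for total (purple) and polysome-associated mRNA (green) in the 3 comparisons, from edgeR over 3 experiments; filled points passed the FDR of 0.25. The points of both RNA types lie close together for most genes, but *Naip5* with LPS (left) lies at 0.39 and 0.71. With torin1 (middle) *Il18* lies at -1.48 and -1.40 and *Nek7* at 0.84 and 1.02 whereas *Nlrp3* lies near 0.

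Torin1 in LPS-treated cells moved *Il18* and *Nek7* in opposite directions, each against its LPS response, while *Nlrp3*, *Casp1*, *Casp4*, *Gsdmd* and *Txnip* were not called in either RNA type. *Casp8* and *Nlrp1b* were lower. In total mRNA 2 of the 10 were higher and 3 lower, beside 53.7% of all genes called, 27.3% as higher and 26.4% as lower. In polysome-associated mRNA 1 was higher and 3 lower, beside 38.4%, 20.3% as higher and 18.2% as lower. The ranges of the 2 treatments did not overlap for 4 of the 10 in each RNA type, as for 42% of all genes in total and 32.6% in polysome-associated mRNA. A block for experiment gave 5 and 4 members called again, beside 64% and 49.7% of all genes. Without experiment 1 the count fell to 3 in total mRNA, and without experiment 1 or 3 it fell to 2 in polysome-associated mRNA, *Il18* and *Nek7*. The LPS libraries serve here as the baseline and in the comparison above as the treated group, so a library that is high by chance moves both.

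*Il18* fell to 7.19, 18.01 and 5.83 CPM of total mRNA with torin1 and LPS, from 32.9, 33.5 and 20.0 with LPS alone, and to 8.16, 12.5 and 6.13 CPM in polysome-associated mRNA. All torin1 libraries lay below all LPS libraries in both RNA types. The decrease was 2.78-fold in total mRNA (log2 fold change -1.48 ± 0.38, edgeR FDR = 0.0154) and 2.64-fold in polysome-associated mRNA (-1.40 ± 0.37, edgeR FDR = 0.0328), and experiment 2 gave the smallest difference in both, -0.90 and -1.20.

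*Nek7* rose to 134, 128 and 129.8 CPM of total mRNA with torin1 and LPS, from 81.3, 74.6 and 62.7 with LPS alone. In polysome-associated mRNA the torin1 values were 157, 109 and 144 CPM, and the LPS values 77.8, 65.2 and 62.7. The rise was 1.79-fold (0.84 ± 0.12, edgeR FDR = 0.000853) in total and 2.03-fold (1.02 ± 0.19, edgeR FDR = 0.00673) in polysome-associated mRNA. The groups did not overlap in either RNA type.

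*Casp8* stood at 88.8, 138 and 96.2 CPM of total mRNA with torin1 and LPS, and the highest of these lay above the lowest LPS library. The log2 fold changes were -0.50 ± 0.19 (edgeR FDR = 0.0747) and, in polysome-associated mRNA, -0.38 ± 0.15 (edgeR FDR = 0.130), where the ranges of 73.8 to 78.8 and 95.8 to 105.8 CPM stood apart. Without experiment 1 neither call held (edgeR FDR = 0.374 and 0.445), and without experiment 3 the polysome call was also lost (0.532).

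*Nlrp1b* fell further, to 14.6, 16.3 and 14.8 CPM of total mRNA, below all LPS libraries (-0.37 ± 0.13, edgeR FDR = 0.0516). The polysome value of -0.35 ± 0.19 was just inside the threshold (edgeR FDR = 0.247). Without experiment 1 both calls were lost (edgeR FDR = 0.296 and 0.473), and the polysome call was also lost without experiment 3 (0.750), with library totals (0.366), with a mean of at least 1 CPM required (0.256) and with these 2 treatments alone in the model (0.325). *Naip5* was called higher in total mRNA by 0.20 ± 0.12 (edgeR FDR = 0.237), a call that was lost without experiment 2 (0.490) or 3 (0.598) and, at the same FDR, under 4 other settings, and it was not called in polysome-associated mRNA (0.02, 95% interval -0.46 to 0.49).

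The 95% intervals show how large a torin1 effect the data would still allow for the genes not called. For *Nlrp3* the interval was -0.21 to 0.29 in total and -0.31 to 0.52 in polysome-associated mRNA. *Gsdmd* had intervals of -0.31 to 0.19 and -0.39 to 0.14. The intervals were wider for *Casp1*, -0.65 to 0.27 and -0.41 to 0.45, and widest for *Casp4*, -0.84 to 0.48 and -0.64 to 0.61. *Txnip* lay at 0.14 in both, with intervals of -0.29 to 0.57 and -0.42 to 0.71. In polysome-associated mRNA, *Gsdmd* with torin1 ranged from 134.9 to 145 CPM, below the 149 to 159.6 CPM of LPS alone, although the difference of -0.13 ± 0.12 did not pass the test (edgeR FDR = 0.513).

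Set against the control, cells with LPS and torin1 kept high *Nlrp3* and *Casp4*. *Nlrp3* stood at 971, 914 and 894 CPM of total mRNA, 6.64 times the control (log2 fold change 2.73 ± 0.12, edgeR FDR = 2.32e-07), and *Casp4* at 111.3, 111.6 and 85.2 CPM, 8.06 times the control (3.01 ± 0.33, edgeR FDR = 4.06e-05). *Casp1*, *Casp8*, *Gsdmd* and *Naip5* were higher by between 0.59 and 0.82 on the log2 scale in total mRNA and by between 0.64 and 1.05 in polysome-associated mRNA. *Nlrp1b* was lower in both (-0.65 ± 0.13, edgeR FDR = 0.00172, and -0.72 ± 0.19, edgeR FDR = 0.0125).

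*Nek7* did not pass the test against control in total mRNA, with a log2 difference of -0.01 and a 95% interval from -0.27 to 0.25 (edgeR FDR = 0.973), and at 0.25 in polysome-associated mRNA (interval -0.16 to 0.66, edgeR FDR = 0.320). With library totals the total mRNA difference was called (-0.30, edgeR FDR = 0.0379), and without experiment 2 the polysome difference was called (0.55, edgeR FDR = 0.0239). *Il18* missed the threshold in total mRNA (0.56 ± 0.38, edgeR FDR = 0.253), passed it with experiment as a block (0.44, edgeR FDR = 0.188), without experiment 3 (0.82, edgeR FDR = 0.173), with DESeq2's size factors (0.57, edgeR FDR = 0.248) and with its Wald test (0.57, DESeq2 FDR = 0.187), and was higher in polysome-associated mRNA (0.79 ± 0.37, edgeR FDR = 0.127) unless experiment 1 was left out (0.60, edgeR FDR = 0.444) or library totals were used (0.49, edgeR FDR = 0.323). *Txnip* lay at -0.01 and -0.14 and was not called, but with library totals it was called lower in both RNA types (-0.31, edgeR FDR = 0.192, and -0.43, edgeR FDR = 0.199). In all, 6 of the 10 were higher and 1 lower in total mRNA, beside 66.7% of all genes called (33.1% higher, 33.6% lower), and 7 higher and 1 lower in polysome-associated mRNA, beside 58.2% (28.5% higher, 29.7% lower). The ranges did not overlap for 7 of the 10 in each RNA type, as for 61.2% of all genes in total and 46.9% in polysome-associated mRNA. With experiment as a block the count was 8 in each, beside 73.5% and 66.3% of all genes called. Library totals gave 6 members higher and 3 lower in total mRNA, beside 2220 and 6182 of all genes, and 6 higher and 2 lower in polysome-associated mRNA, beside 2009 and 5428.

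**Figure D3:**
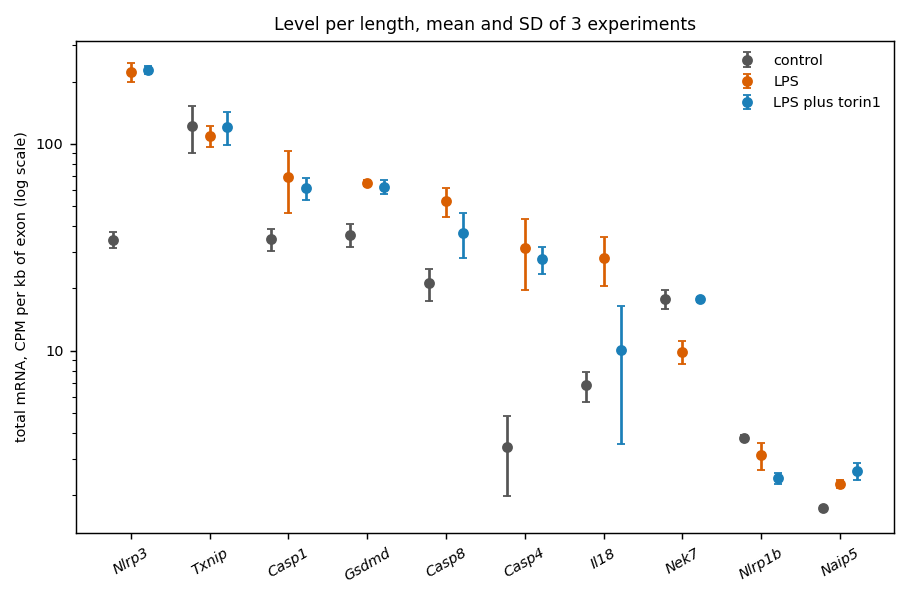
Total mRNA per kilobase of exon (CPM per kb, log scale; mean and SD of 3 experiments) in the 3 treatments, with genes ordered by their level with LPS. *Nlrp3* heads the order with LPS at 222 CPM per kb, and *Nlrp1b* and *Naip5* close it at about 3 and 2.

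Levels of different genes were compared per kilobase of merged exon length, as means ± SD over 3 experiments of total mRNA. In control cells *Txnip* led at 122 ± 31.3 CPM per kb, followed by *Gsdmd* (36.3 ± 4.69), *Casp1* (34.6 ± 4.2) and *Nlrp3* (34.4 ± 3.13), which lay within 1 SD of each other. *Casp8* at 21.1 ± 3.80 and *Nek7* at 17.8 ± 1.79 CPM per kb also lay within their spread. *Il18* followed at 6.78 ± 1.13, and *Nlrp1b* (3.80 ± 0.12), *Casp4* (3.42 ± 1.43) and *Naip5* (1.73 ± 0.05) closed the order, with *Nlrp1b* and *Casp4* within 1 SD of each other.

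With LPS *Nlrp3* came first at 222 ± 23.3 CPM per kb, about double *Txnip* at 110 ± 12.9. *Casp1* (69.5 ± 22.95) could not be ordered against *Gsdmd* (64.7 ± 2.33) or *Casp8* (52.8 ± 8.41) beyond its own SD. *Gsdmd* stood above *Casp8* by more than the SD of either. *Casp4* (31.4 ± 11.8) and *Il18* (27.9 ± 7.42) lay within 1 SD of each other. *Nek7* was eighth at 9.88 ± 1.28 CPM per kb. With torin1 and LPS, *Nek7* stood above *Il18*, at 17.7 ± 0.45 against 10.03 ± 6.48 CPM per kb, a gap of just over 1 SD of *Il18*, and *Nlrp3* was again first at 228 ± 9.85.

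The paper describes the sequenced polysome-associated mRNA as that of pooled heavy polysome fractions, so mRNA on lighter polysomes was not part of it. Its difference from the total mRNA of the same lysates was read on the log2 scale, relative to the average mRNA. The caspase mRNAs and *Nlrp1b* were under-represented on these heavy polysomes, and no gene of the 10 was called as over-represented in any treatment. The CPM ranges of both RNA types did not overlap for 3, 2 and 4 of the 10 in control, LPS-treated and LPS plus torin1-treated cells, as for 61.2%, 48.6% and 46% of all genes. The lower calls were 5 of the 10 in control cells, where 69.6% of all genes were called, 36.3% as higher and 33.2% as lower, 5 of the 10 with LPS (65.2% called, 34.1% higher and 31.1% lower) and 4 of the 10 with LPS and torin1 (55.6% called, 27.8% in each direction). With the lysate pairs as a block, which the matched design allows, the counts were 8, 7 and 7, all lower, beside 80%, 76.9% and 70.5% of all genes called.

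*Nlrp1b* was the lowest of the 10, at -0.83 ± 0.16 in control cells (edgeR FDR = 0.000632), -0.92 ± 0.16 with LPS (edgeR FDR = 0.000322) and -0.92 ± 0.16 with LPS and torin1 (edgeR FDR = 0.000539). Its polysome CPM lay below its total CPM in all 9 lysates. In control cells, for example, the log2 differences were -0.90, -0.72 and -0.87 in experiments 1 to 3.

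The 3 caspase mRNAs followed. *Casp8* lay at -0.51, -0.61 and -0.51 in control, LPS and LPS with torin1, each called (edgeR FDR = 0.0289, 0.0126 and 0.0416), and was below 0 in all 9 lysates. *Casp1* lay at -0.55, -0.54 and -0.35 in the same order (edgeR FDR = 0.0410, 0.0521 and 0.228), and without experiment 2 the last of these was -0.13 and not called, nor was it with DESeq2's size factors (0.257) or Wald test (0.267). *Casp4* lay at -0.63, -0.62 and -0.48 (edgeR FDR = 0.124, 0.128 and 0.269), and both calls were lost without experiment 1 (0.267 and 0.292), whereas with the block all 3 were called (edgeR FDR = 0.00160, 0.00179 and 0.00859). Both *Casp1* and *Casp4* were below 0 in all 9 lysates.

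*Naip5* was lower on polysomes in control cells (-0.45, edgeR FDR = 0.0397) and with LPS and torin1 (-0.33, edgeR FDR = 0.146), the latter not without experiment 2 or 3, and not called with LPS (-0.12, edgeR FDR = 0.583). *Nlrp3* lay between -0.21 and -0.26 in the 3 treatments, called with LPS (edgeR FDR = 0.195) unless any 1 experiment was left out. In control cells it was called without experiment 1 (edgeR FDR = 0.234), with DESeq2's size factors (0.249) and with a mean of at least 1 CPM required (0.245), and it was called with the block in all 3 treatments (edgeR FDR = 0.0740, 0.0424 and 0.0920). *Gsdmd* lay near the average mRNA throughout, at 0.07, 0.00 and -0.09, with intervals no wider than 0.32 on either side of 0. *Il18*, *Nek7* and *Txnip* were not called in any treatment, although without experiment 2 *Il18* (-0.75, edgeR FDR = 0.0536) and *Nek7* (-0.26, edgeR FDR = 0.204) were called in control cells. With the block, *Il18* was called in control cells (-0.48, edgeR FDR = 0.0253) and with LPS (-0.26, 0.181), *Nek7* in control cells (-0.18, 0.165) and *Txnip* with LPS (-0.19, 0.151) and with LPS and torin1 (-0.21, 0.128).

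**Figure D4:**
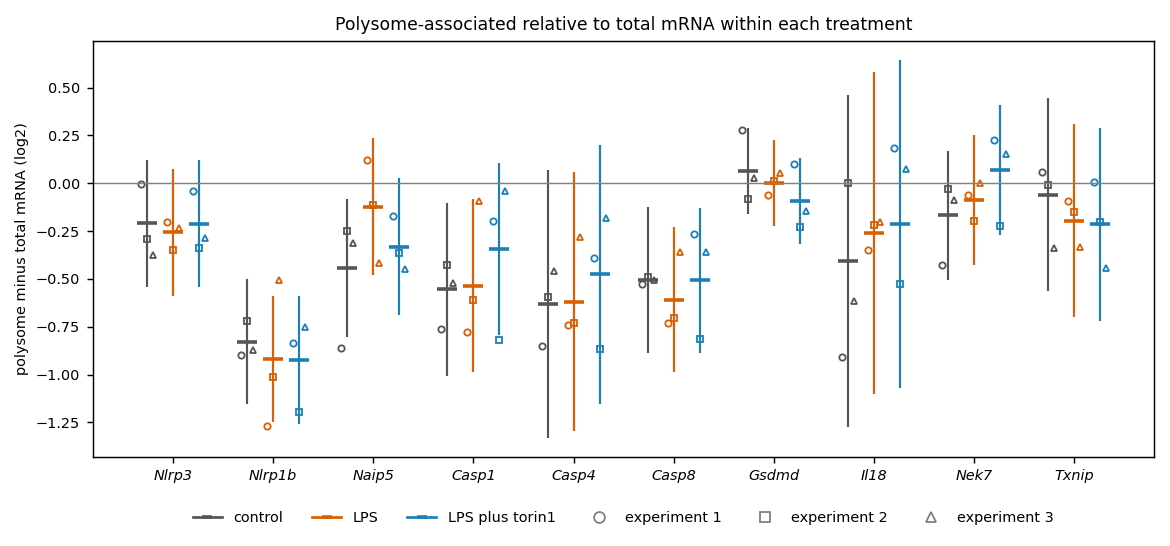
Log2 difference between polysome-associated and total mRNA within each treatment; bars are the edgeR estimate with its 95% interval over 3 experiments and open symbols are the single experiments. All points of *Nlrp1b*, *Casp1*, *Casp4* and *Casp8* lie below 0, and *Gsdmd* lies around 0.

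None of the 10 mRNAs was called for translation efficiency, that is, the polysome change beyond the total mRNA change, and nor was any other gene by the interaction test, so the count says nothing particular of the 10. The interaction test called 0 of the 10 and 0 of 11243 genes for LPS against control, and at an unadjusted p under 0.05 it held 0 of the 10 and 44 of all genes. For torin1 with LPS against LPS it called 0 of the 10 and 0 of all genes, with 0 and 110 at an unadjusted p under 0.05. Against control the numbers with torin1 and LPS were 0 and 0, with 0 and 145 at that unadjusted p. Other tests called some genes but none of the 10. In the same order of comparisons, DESeq2's Wald test called 1, 7 and 1 genes and the analysis of partial variance 12, 24 and 18. The interaction with the lysate as a block called 0, 25 and 3 (0%, 0.222% and 0.0267% of all genes). At an unadjusted p under 0.05 it held 164, 303 and 820 of all genes.

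The greatest single value was that of *Naip5* with LPS, 0.32 with a 95% interval from -0.18 to 0.83 (edgeR FDR = 1.00), which came from experiment 1 (0.98, against 0.14 and -0.11). *Nlrp3* lay at -0.05 with LPS (interval -0.52 to 0.42) and at 0.05 when torin1 was added (-0.42 to 0.52). The interval was narrowest for *Gsdmd*, from -0.38 to 0.25 with LPS, and widest for *Il18*, from -1.06 to 1.35. The model used no lysate pairs, so these widths are those of an unpaired test with 3 experiments. A change inside these bounds was not excluded.

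The other genes of the pathway were grouped by role, and 74 of 86 listed had a row. Changes of single genes in the lists are log2 fold changes ± SE. Of all genes, 32.2% were higher and 34.3% lower with LPS in total mRNA, and 26.4% and 28.7% in polysome-associated mRNA. With torin1 the shares were 27.3% and 26.4%, and 20.3% and 18.2%. With library totals, 1722 of all genes were higher and 6966 lower with LPS in total mRNA, and 1539 and 6101 in polysome-associated mRNA. With torin1 these were 3586 and 2342, and 2667 and 1629. The list of the interleukin-1 family and its antagonists held 6 measured genes, the cytokines *Il1a* and *Il1b*, the antagonists *Il1rn* and *Il18bp* and the receptor chains *Il1rap* and *Il18rap*. All 6 were higher with LPS in both RNA types, under both scalings, with a median log2 change of 3.70 in total mRNA beside -0.02 in all genes, and with torin1 5 of the 6 were lower in both RNA types, with a median of -1.10. *Il1b*, the main substrate of caspase-1, rose by 9.85 ± 0.64 on the log2 scale in total mRNA (edgeR FDR = 2.1e-06) and fell by 1.82 ± 0.44 with torin1 (edgeR FDR = 0.012). *Il1a* rose by 10.29 ± 0.53 and fell by 2.34 ± 0.34 with torin1. In control cells total mRNA averaged 0.367 CPM for *Il1a* (3 to 25 reads a library) and 2.035 CPM for *Il1b* (18 to 149). The size of both rises therefore rests on a low baseline. *Il1rn*, which encodes the antagonist of the interleukin-1 receptor, rose by 5.92 ± 0.30 and with torin1 lay at -0.11 ± 0.24, the 1 gene of the 6 that was not called. The receptor chains and *Il18bp*, chosen after their values were seen, rose by less, 0.85 ± 0.11 for *Il1rap*, 0.90 ± 0.22 for *Il18rap* and 1.48 ± 0.25 for *Il18bp* in total mRNA.

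Of 9 measured sensors and adaptors, 5 were higher and 2 lower with LPS in total mRNA and 5 and 3 in polysome-associated mRNA, or 4 and 4, and 4 and 3, with library totals. *Zbp1*, a sensor of Z-form nucleic acid, rose by 4.16 ± 0.51 and *Aim2*, the sensor of cytosolic DNA, by 1.28 ± 0.11 in total mRNA, whereas *Nlrp10* fell by 2.87 ± 0.18. *Mefv* rose by 1.58 ± 0.52, from a mean of 0.113 to 0.338 CPM, which are very few reads. *Nlrc4*, which acts with the NAIP proteins, was not called with LPS (-0.18 ± 0.25) and rose with torin1 by 1.22 ± 0.25 in total (edgeR FDR = 0.0059) and 1.28 ± 0.34 in polysome-associated mRNA (edgeR FDR = 0.031). With torin1 the list held 3 higher and 4 lower in total mRNA, and 3 and 3 in polysome-associated mRNA.

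Among 15 genes of NLRP3 input and licensing, 9 were higher and 3 lower with LPS in total mRNA and 8 and 3 in polysome-associated mRNA, and with library totals 6 and 6, and 7 and 6. *Gbp5* and *Gbp2*, guanylate-binding proteins that act on bacteria and on NLRP3 and caspase-11 activation, rose by 6.02 ± 0.47 and 5.52 ± 0.53. *Pstpip1*, a partner of pyrin, rose by 1.95 ± 0.20 and fell by 0.90 ± 0.19 with torin1, and *Myd88*, the adaptor of Toll-like receptors, rose by 1.32 ± 0.16 and fell by 0.88 ± 0.15 with torin1. Torin1 gave 5 higher and 4 lower in total mRNA and 5 and 3 in polysome-associated mRNA, or 6 and 3 in total mRNA with library totals. *P2rx7* and *Panx1*, an ATP-gated channel and a channel that releases ATP, were chosen after their values were seen: with LPS they fell by 1.50 and 1.26 in total mRNA, and with torin1 they rose by 0.70 and 0.36.

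Of 12 genes around caspase-8 and necroptosis, 7 were higher and 2 lower with LPS in total mRNA and 6 and 2 in polysome-associated mRNA, or 5 and 5, and 5 and 4, with library totals. *Cflar*, the brake on caspase-8, rose by 2.27 ± 0.21 and did not pass with torin1 (-0.01 ± 0.20). *Mlkl*, the pore protein of necroptosis, rose by 2.27 ± 0.26 and fell by 1.08 ± 0.25 with torin1, and *Birc3* rose by 1.06 ± 0.19. *Birc2*, a ubiquitin ligase, was not called with LPS in total mRNA (-0.15 ± 0.12) unless library totals were used (-0.52, edgeR FDR = 0.0029), and rose by 0.42 ± 0.12 with torin1. With torin1 this list held 4 higher and 3 lower in total mRNA and 2 and 1 in polysome-associated mRNA, or 5 and 2, and 4 and 1, with library totals.

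The 13 executioners and brakes of pyroptosis split evenly, with 5 higher and 4 lower in total mRNA and 3 and 3 in polysome-associated mRNA with LPS, but 2 and 8, and 1 and 6, with library totals. *Dfna5*, the older symbol of gasdermin E, fell by 0.80 ± 0.12, while *Chmp4b*, of the membrane repair machinery, rose by 1.45 ± 0.23. *Ninj1*, which ruptures the plasma membrane, rose by 0.78 ± 0.17 in total and by 0.65 ± 0.38 in polysome-associated mRNA, the latter not with library totals (0.30, edgeR FDR = 0.550). With torin1 *Dfna5* rose by 0.47 ± 0.12, and the list held 2 higher and 2 lower in total mRNA and 1 and 3 in polysome-associated mRNA, or 4 and 1, and 2 and 1, with library totals.

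Among 12 genes of the thioredoxin system and of MondoA, the factor that drives *Txnip*, 8 were higher and 3 lower with LPS in total mRNA and 7 and 3 in polysome-associated mRNA, and 3 and 4 in either with library totals. *Arrdc3* and *Arrdc2*, arrestin relatives of *Txnip*, fell by 2.32 ± 0.25 and 1.74 ± 0.22, and *Slc2a1*, a glucose transporter, rose by 1.99 ± 0.13. *Ddit4*, a brake on mTORC1, rose by 3.52 ± 0.46 and fell by 4.85 ± 0.53 with torin1, at means of 0.570, 6.61 and 0.225 CPM. *Arrdc2* rose with torin1 by 1.39 ± 0.22, in a list with 3 higher and 3 lower in each RNA type.

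Of the 7 other NEK kinases, 5 were lower and 2 higher with LPS in total mRNA and 3 lower and 1 higher in polysome-associated mRNA, or 5 lower and 0 higher in either with library totals. With torin1, 4 of the 7 were higher and 0 lower in each RNA type, with median log2 changes of 0.29 and 0.53. Of all genes, 27.3% were then higher and 26.4% lower in total mRNA, and 20.3% and 18.2% in polysome-associated mRNA. *Nek2*, a centrosomal kinase, fell by 0.82 ± 0.09 with LPS and rose by 0.57 ± 0.09 with torin1. *Nek6*, the closest relative of *Nek7*, rose by 0.44 ± 0.16 with LPS (0.07 with library totals, edgeR FDR = 0.671) and by 0.64 ± 0.16 with torin1. *Nek3* fell by 0.41 ± 0.19 and rose by 0.52 ± 0.19.

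**Figure D5:**
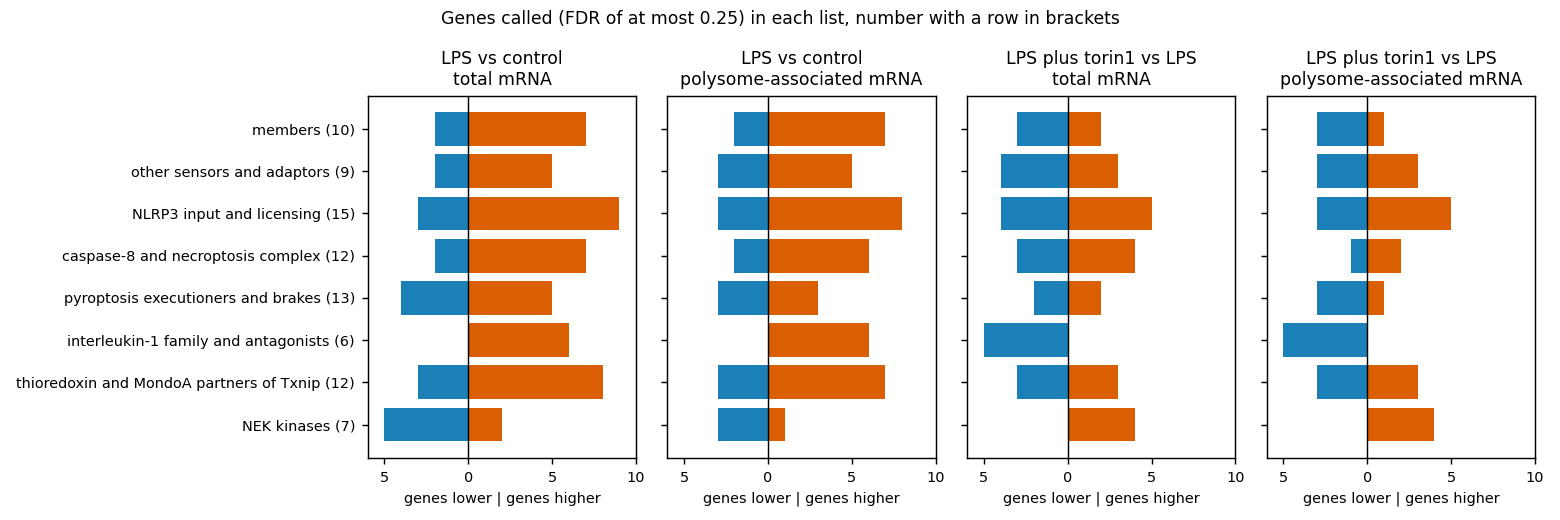
Number of genes called higher (right) and lower (left) at an FDR of 0.25 in the 10 genes (top row) and in each list of related genes, with the number measured in brackets, for LPS against control and for LPS plus torin1 against LPS. With TMM scaling the interleukin-1 list has 6 higher with LPS and 5 lower with torin1 in each RNA type, and the NEK list has 4 higher with torin1.

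For each of the 10, the 3 genes of the table with the most similar pattern over the 18 libraries were found by Pearson's r of log2 CPM. The 18 points share lysates and treatments, so r is a description. *Nlrp3* was most like *Ikbke* (0.992), *Agpat4* (0.989) and *Mmp14* (0.988), and *Casp4* was most like *Lilrb4* (0.994), *Cflar* (0.993) and *Gp49a* (0.987). *Casp8* was nearest to *Ifi203* (0.986), and *Casp1* to *A230046K03Rik* (0.985). *Il18* was nearest to *Pcgf5* (0.987), *Gsdmd* to *Edn1* (0.981) and *Nlrp1b* to *Hmgb1* (0.969). The best r was lower for *Nek7* (*Rmnd5a*, 0.943) and *Naip5* (*Vps54*, 0.929), and lowest for *Txnip* (*Olfm1*, 0.766), which with TMM scaling and all 3 experiments was not called in any treatment comparison.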

How the data were processed

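RNA was taken from whole lysates (total mRNA) and from pooled heavy polysome fractions of a sucrose gradient (polysome-associated mRNA). The authors prepared stranded, ribosomal RNA-depleted libraries, used Hisat2 for alignment of the read pairs (GRCm38) and featureCounts for gene counting, and kept protein-coding genes without a 0 in any library. The deposited values are raw counts, not normalized, with a lowest value of 1, so scarce mRNAs are missing from the table. No rows lacked a gene name. The versions of the aligner and annotation and the strand setting are not given in the sources used here.

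The tools were edgeR 4.0.16 in R 4.3.3 (TMM, quasi-likelihood test on the counts as deposited), DESeq2 1.42.0 and limma 3.58.1. The 9 libraries of an RNA type entered one model. Translation efficiency (interaction, fold of at least 1.2) and polysome against total mRNA came from one model with 6 groups and no term for the lysate. FDR values are Benjamini-Hochberg adjusted over all 11243 genes, with the threshold of 0.25 stated in the study's methods. SE is that of the log2 fold change. Intervals and p-values rest on 3 experiments. The scripts were tested on simulated data.

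Experiment numbers come from the labels, and the methods describe matched total and polysome RNA of a lysate. Deviations of same-numbered libraries from their group means correlated at 0.335 on average in total mRNA (lowest 0.149 of 9 pairs) and at 0.48 between the RNA types of a lysate (lowest 0.389), and these were taken as paired. For polysome-associated mRNA the average was 0.291 (lowest -0.092), and the block was run there too. Replicate libraries differed by more than sampling noise (chi-square per degree of freedom of at least 26.3 in all 18 pairs).

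Exon lengths, positions and overlaps came from the GENCODE annotation of GRCm38, start-site windows from RefSeq (GRCm38.p6). The genes and lists were chosen with earlier results of these data known. From each list the text names the 3 genes with the largest LPS change and the 2 with the largest torin1 change among those called in both RNA types, and in any case *Pycard*, *Nlrc4*, *Aim2*, *Il1b* and *Ninj1*. A gene that this rule names is not reported here. The 3 most similar genes were ranked by log2 CPM with a prior count of 0.5. Alternatives were a block, DESeq2's size factors and Wald test, a mean of at least 1 CPM and each experiment left out. The block was experiment within an RNA type and lysate where both RNA types were compared. Others were the compared treatments alone, one model over 18 libraries, an FDR of 0.05 and an analysis of partial variance. Library totals in place of TMM were added after the data were seen.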

Additional observations from a re-analysis of the deposited data

How the results depend on the processing

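Of 1230 values of the 10 genes under alternatives, 1159 kept their side of the threshold, 47 lost a call, 24 gained one and 0 called values changed sign; 70 uncalled values changed sign, none from a size above 0.32. With an FDR of 0.05 the members called fell to 2 in total and 2 in polysome-associated mRNA for torin1 with LPS against LPS, and to 2 for polysome against total mRNA with LPS and 2 with LPS and torin1. With the lysate block, polysome against total mRNA gave 8 in control cells and 7 with LPS and torin1. Same-numbered polysome-associated libraries of different treatments correlated at 0.291 on average (lowest -0.092) in their deviations from group means. With experiment as a block the counts stayed at 9, 4 and 8 there. A block moved no other count of the 10 by over 1.5 times, but the *Il18* call named above was added. Leaving out each experiment gave 8 to 9 called (total) and 7 to 10 (polysome-associated) for LPS against control, 3 to 4 and 2 to 4 for torin1 with LPS against LPS, 7 to 8 and 7 to 9 for torin1 with LPS against control, and 5 to 7, 3 to 4 and 2 to 4 for polysome against total in control, LPS and LPS with torin1. With library totals in place of TMM, 3 values of list genes reversed: *Birc2* to -0.026 (torin1 with LPS against control, total mRNA) and to -0.36 (LPS against control, polysome-associated mRNA), and *Nek6* to -0.052 (the latter comparison). Translation efficiency stayed at 0 of the 10 under every alternative run. The limits are 3 experiments, a table without genes at 0 in any library, and relative levels that cannot show a change of all mRNA.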
